A study of Mus musculus with 8 samples.

Results

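Claudins, occludin and zonula occludens 1 are proteins of the tight junction, the seal that epithelial cells form around their apical borders. The 10 genes described here were chosen by symbol and are 8 claudins (Cldn2, Cldn3, Cldn4, Cldn7, Cldn8, Cldn12, Cldn15 and Cldn23), occludin (Ocln) and zonula occludens 1 (Tjp1). All 10 were found among the 41128 gene rows of the deposited expression table. Claudins are small membrane proteins whose extracellular loops meet between neighbouring cells and either close the paracellular space or form pores selective for ions. Claudin-2 and claudin-15 form pores for sodium in the small intestine, where they return the sodium that nutrient transporters need to the lumen. Claudin-3, claudin-4, claudin-7 and claudin-8 are usually counted among the sealing claudins, occludin is a membrane protein of the same strands, and zonula occludens 1 is the scaffold that ties them to actin.

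RNA from whole tissue sections of distal ileum, taken within 6 cm of the ileocecal valve, was sequenced in 8 FVB mice, 1 library per mouse. The mice were 4 littermate couples, each with a wild-type animal (WT, Cftr N/N) and an animal homozygous for the null allele Cftrtm1Cam (KO, Cftr -/-), which lacks the epithelial chloride and bicarbonate channel in every tissue. Couples 1 and 3 were female and couple 2 was male, and all 3 were untreated (WT n = 3, KO n = 3). The remaining couple, labelled female, drank water with 0.3 g/L ciprofloxacin and 0.5 g/L metronidazole (WT n = 1, KO n = 1), referred to here as the antibiotic couple. All 8 mice had a low-fiber diet and an osmotic laxative that was stopped more than 4 days before sampling, and their age is not given in the sources used here.

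Values are the authors' normalized values, read as RPKM (scaled by library size and gene length). How many reads lie behind each value is unknown. Cftr itself was listed at 9.94 to 12.4 in the untreated WT libraries and 2.65 to 3.74 in the untreated KO libraries, and at 13.8 in WT and 4.94 in KO of the antibiotic couple. All 9 epithelial markers checked, among them Epcam, Cdh1 and Vil1, had at least 1 in each library. Their values summed to 5080 to 8010 in untreated WT mice, 6020 to 7790 in untreated KO mice, and 6170 (WT) and 4910 (KO) in the antibiotic couple. The summed value of 11 villus enterocyte markers was lower in untreated KO (9200 to 16400) than in untreated WT (17800 to 24800), and that of 12 leukocyte markers was higher (185 to 382 against 98.2 to 173). The median log2 change over the leukocyte markers was 0.712, -0.249 and 1.611 in couples 1, 2 and 3, so it was below 0 in couple 2. In the antibiotic couple the enterocyte sum was 26500 in WT and 31400 in KO, and the leukocyte sum 61.0 and 271. The KO library of couple 1 also carried RNA of genes typical of colon: Car1 was 12.4 there and at most 0.0243 in the other 7 libraries, and Aqp8 (0.581), Hoxb13 (0.212) and Hoxd13 (0.0808) were listed at 0 in those 7.

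Tight junction genes spanned more than 2 orders of magnitude in untreated WT ileum, from Cldn7 to Cldn8. Cldn7 was highest, at 391 ± 89.1 (SD, n = 3), followed by Cldn3 (257 ± 71.1) and Cldn15 (230 ± 65.1). Cldn4 followed at 60.0 ± 15.6, Ocln at 32.0 ± 4.29, Cldn2 at 28.1 ± 2.84 and Tjp1 at 21.3 ± 2.89. The lowest were Cldn23 (18.3 ± 1.80), Cldn12 (9.74 ± 0.986), a claudin tied to calcium uptake, and Cldn8 (1.07 ± 0.679). The ranges of neighbours in this order overlapped for Cldn7 and Cldn3, Cldn3 and Cldn15, Ocln and Cldn2, and Tjp1 and Cldn23, and did not overlap for the other 5 pairs of neighbours. Cldn7 nevertheless exceeded Cldn3 within each of the 8 libraries, while Cldn3 exceeded Cldn15 in 3 of 8.

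**Figure D1:**
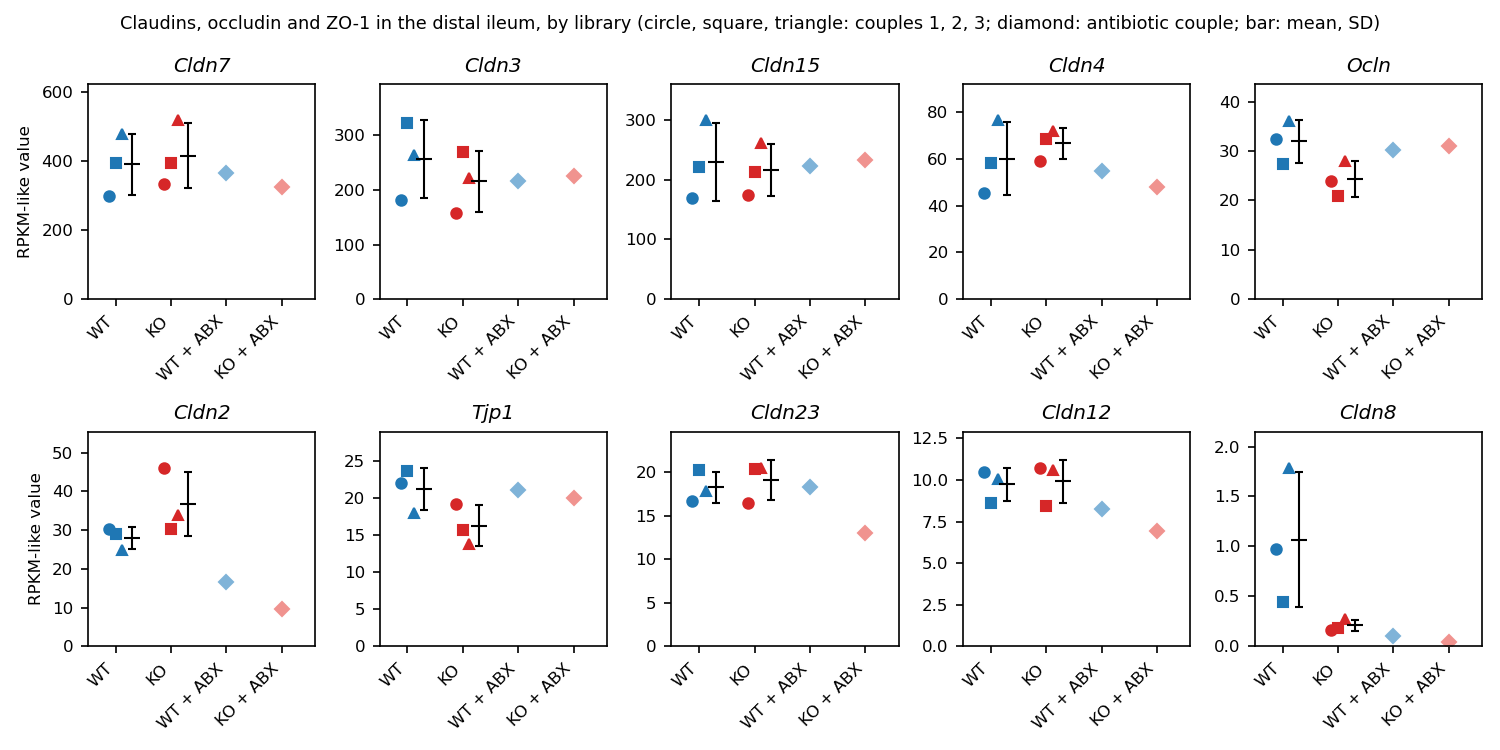
RPKM-like value (vertical axes, starting at 0) of each of the 10 genes in untreated WT and KO and in the antibiotic couple (WT + ABX, KO + ABX), 1 point per library, with mean and SD for the untreated groups. Cldn2 lies at 16.6 and 9.54 in the antibiotic couple, below the lowest untreated library (24.9), and the untreated WT and KO points overlap in 9 of the 10 panels (not in Cldn8).

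The claudin mixture was dominated by 3 genes. Of 25 claudin genes in the table, Cldn7, Cldn3 and Cldn15 together made up 83.8%, 87.4% and 87.2% of the summed claudin values in untreated WT of couples 1, 2 and 3, and 81.5%, 85.7% and 86.5% in KO. In the antibiotic couple they made up 87.2% (WT) and 88.2% (KO). The share of Cldn7 alone averaged 38.4% ± 1.64 over the untreated WT libraries and 41.4% ± 3.18 over the KO libraries (SD, n = 3 per genotype), and was higher in KO in each untreated couple. The share of Cldn3 was 25.2% ± 4.29 and 21.6% ± 4.13, and was lower in KO in each untreated couple. In the antibiotic couple both orders were turned, with Cldn7 at 39.5% in WT and 36.6% in KO and Cldn3 at 23.4% and 25.4%. These shares add up to 100% within a library, so they are not independent of each other, and no test was made of them.

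**Figure D2:**
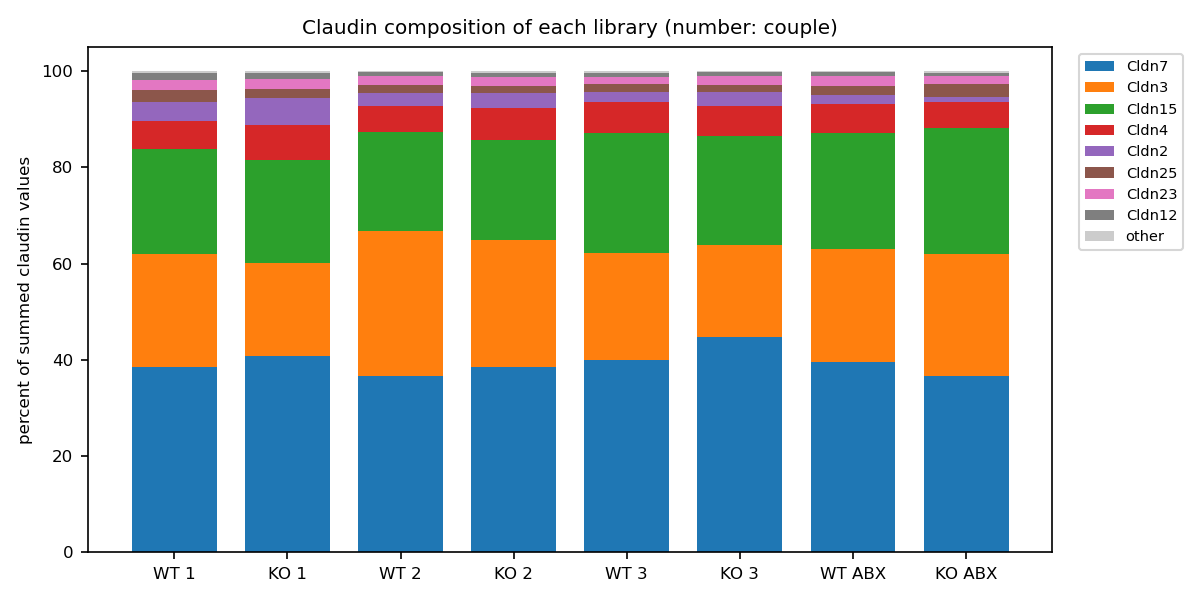
Percent of the summed values of all 25 claudin genes (vertical axis) taken by each of the 8 highest claudins in each library, with the 17 others pooled in grey. Cldn7, Cldn3 and Cldn15 fill 81.5% to 88.2% of each bar, and the Cldn2 band is widest in KO of couple 1 (5.66%) and narrowest in KO of the antibiotic couple (1.08%).

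The next question was which of the 10 genes differ between untreated KO and WT ileum. No member passed the test: 0 of 9 tested genes had a Benjamini-Hochberg adjusted p under 0.05 (limma on log2(value + 1), adjusted over 11717 genes), against 2.16% of all tested genes (1.15% higher and 1.01% lower), and 0 of 9 had an unadjusted p under 0.05, against 16.0% of all tested genes. Cldn8 was too low to be tested, with a value of at least 1 in 1 library. The median log2 change of the 9 was 0.022, beside -0.014 for all tested genes. With the couple as a block, which compares each KO mouse with its own littermate, 1 of the 9 members was called, against 18.3% of all tested genes (8.4% higher and 9.91% lower), and 4 of the 9 had an unadjusted p under 0.05, against 38.9%. Of the 9, 4 had the same direction in all 3 couples (Cldn2 higher, Cldn3, Ocln and Tjp1 lower), against 60.6% of all tested genes (28.1% higher and 32.5% lower). For 0 of the 9 were the groups free of overlap, against 22.4% (10.4% higher and 12.1% lower).

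Ocln was the member called with the block. Its value in couples 1, 2 and 3 was 32.4, 27.5 and 36.0 in the WT mice and 24.0, 20.8 and 28.1 in KO. Each KO library was lower than its littermate by a similar ratio (0.742, 0.758 and 0.779), while KO of couple 3 lay just above WT of couple 2, so the groups overlap. The fitted log2 change was -0.38 (SE 0.19, limma adjusted p = 0.369) without the block and -0.38 (SE 0.07, adjusted p = 0.0316) with it, a ratio of 0.767 with a 95% interval of 0.677 to 0.869 with the block. With the block and 1 couple left out, the adjusted p was 0.0897 without couple 1, 0.106 without couple 2 and 0.124 without couple 3, with log2 changes of -0.37 to -0.40. Relative to Epcam, a general epithelial gene, Ocln was 4.56%, 4.16% and 4.07% in the WT mice and 3.50%, 4.13% and 3.55% in KO of couples 1, 2 and 3, so the difference in couple 2 was nearly absent on that scale. The villus enterocyte sum given above moved the same way as Ocln in each of the 4 couples, and its part in the result was not tested. In whole tissue, fewer cells of a type and less RNA per cell cannot be told apart.

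Tjp1 followed Ocln in direction. It was 22.0, 23.7 and 18.1 in the WT mice and 19.3, 15.7 and 13.8 in KO of couples 1, 2 and 3, lower in KO within each couple, with overlapping groups. The log2 change was -0.37 (SE 0.19, limma adjusted p = 0.388, and 0.064 with the block). The ratio of KO to WT ranged more widely than for Ocln, from 0.661 in couple 2 to 0.876 in couple 1.

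Cldn3, the second most abundant claudin, was 182, 323 and 265 in the WT mice and 158, 270 and 221 in KO. The couples differed far more than the genotypes, and within each couple KO was lower by nearly the same ratio (0.870, 0.835 and 0.834). The log2 change was -0.24 (SE 0.31, limma adjusted p = 0.768, and 0.0942 with the block).

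Cldn2, the cation pore, was the one tested member higher in KO in 3 of 3 couples. It was 30.4, 29.0 and 24.9 in the WT mice and 46.2, 30.3 and 33.9 in KO, and KO of couple 2 lay below WT of couple 1. The log2 change was 0.36 (SE 0.20, limma adjusted p = 0.444, and 0.102 with the block), with a 95% interval for the ratio of 0.924 to 1.78 without the block. The highest value came from the KO library that also carried Car1, and without that library the log2 change was 0.19 (adjusted p = 0.739). The summed value of 9 proliferating cell markers was higher in untreated KO (128 to 166) than in untreated WT (95.6 to 121). Among the treated littermates KO also had the higher sum (93.5 against 86.0), with a median log2 change of -0.106 over these markers. Cldn2 was lower in that KO mouse (9.54 against 16.6). The sum of 9 crypt base and stem cell markers overlapped between untreated KO (208 to 256) and untreated WT (215 to 272). The part of either list in the Cldn2 result was not tested. In the deposited values couple 2 contributed almost no difference (ratio 1.04, against 1.52 in couple 1 and 1.36 in couple 3). Relative to Epcam, Cldn2 was 4.28%, 4.39% and 2.81% in the WT mice and 6.72%, 6.0% and 4.29% in KO. On that scale it was higher in KO within each couple, couple 2 included, with overlapping groups. The ratio of Cldn2 to Cldn15, the other sodium pore, was 17.9%, 13.1% and 8.32% in the WT mice and 26.6%, 14.2% and 13.0% in KO, higher in KO within each couple, with overlapping groups.

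Cldn8 was low in all libraries. It was 0.973, 0.443 and 1.79 in the WT mice and 0.168, 0.187 and 0.273 in KO of couples 1, 2 and 3, so each KO value was below each WT value. The ratios of KO to WT were 0.173, 0.423 and 0.153. In a fit without the filter on low values its log2 change was -0.72 (SE 0.25, limma adjusted p = 0.504). At such values the deposited numbers cannot be tied to a number of reads.

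The remaining claudins had small fitted differences between untreated genotypes. Cldn15 was 170, 220 and 299 in the WT mice and 174, 213 and 262 in KO. Cldn7 was 300, 394 and 478 in the WT mice and 333, 394 and 519 in KO, and held the same rank in both libraries of couple 2, where the authors' normalization gave it an identical value. Cldn4 was 45.4, 58.3 and 76.5 in the WT mice and 59.2, 68.7 and 72.1 in KO, higher in 2 couples and lower in 1. Cldn12 (8.62 to 10.5 in WT, 8.43 to 10.8 in KO) and Cldn23 (16.7 to 20.2 and 16.5 to 20.5) had nearly the same range in both genotypes. With the block, the 95% interval of the KO to WT ratio was 0.812 to 1.12 for Cldn15, 0.907 to 1.25 for Cldn7, 0.921 to 1.39 for Cldn4, 0.891 to 1.16 for Cldn12 and 0.903 to 1.21 for Cldn23.

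**Figure D3:**
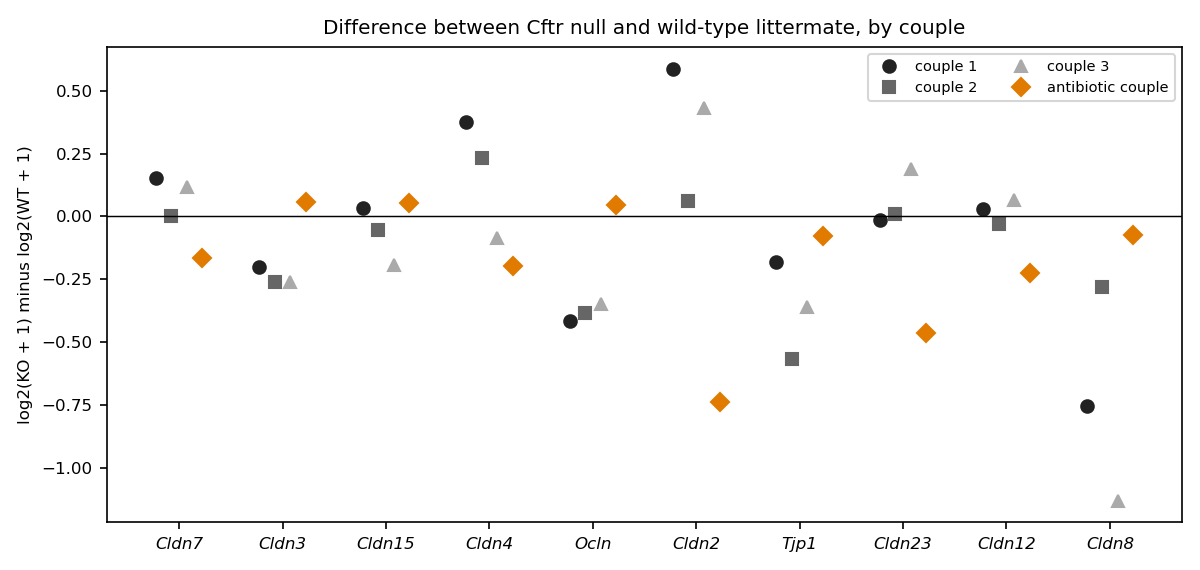
Difference between KO and WT littermate on the log2(value + 1) scale (vertical axis; 0 is no difference) for each gene, 1 point per couple. Ocln sits between -0.35 and -0.42 in the 3 untreated couples and at 0.05 in the antibiotic couple, and Cldn2 sits between 0.06 and 0.59 in the untreated couples and at -0.74 in the antibiotic couple.

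The 4 tested genes with 1 direction in the 3 untreated couples are shown by the 250 bases before their RefSeq start site (GRCm38.p6). Ocln, Tjp1 and Cldn3 were lower in KO and Cldn2 was higher. Sharing a direction was no more frequent among the members than among all tested genes (60.6%), and shared regulation was not tested. Capitals mark matches, on either strand, to 7 motifs: TTTATG of the Cdx factors, GTTAAT, a homeodomain motif, AGATAA of the Gata factors, CACCTG of the E-box, TGANTCA of the Jun and Fos factors, TATAAA of the basal promoter, and GGGCGG of the Sp1 family.
Cldn2: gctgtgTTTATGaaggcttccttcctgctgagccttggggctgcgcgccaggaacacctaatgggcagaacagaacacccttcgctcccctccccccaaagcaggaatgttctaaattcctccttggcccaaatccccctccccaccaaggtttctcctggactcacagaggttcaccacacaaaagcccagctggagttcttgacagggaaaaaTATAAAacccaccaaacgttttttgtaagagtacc
Cldn3: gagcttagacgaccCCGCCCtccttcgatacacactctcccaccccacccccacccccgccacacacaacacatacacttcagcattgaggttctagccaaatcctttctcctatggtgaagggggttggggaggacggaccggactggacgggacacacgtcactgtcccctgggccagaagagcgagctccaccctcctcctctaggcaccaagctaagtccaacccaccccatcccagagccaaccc
Ocln: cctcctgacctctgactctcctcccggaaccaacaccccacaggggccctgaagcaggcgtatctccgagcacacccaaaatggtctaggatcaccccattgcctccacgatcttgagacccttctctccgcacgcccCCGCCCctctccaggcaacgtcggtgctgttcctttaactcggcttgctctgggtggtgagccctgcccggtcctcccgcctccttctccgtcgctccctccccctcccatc
Tjp1: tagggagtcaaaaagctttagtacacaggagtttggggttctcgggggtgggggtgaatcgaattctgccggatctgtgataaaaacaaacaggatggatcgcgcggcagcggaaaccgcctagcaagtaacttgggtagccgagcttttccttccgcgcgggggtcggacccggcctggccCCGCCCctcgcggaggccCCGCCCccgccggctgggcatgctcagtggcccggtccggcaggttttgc
The Cldn2 window lies at chrX:139800558-139800807 (plus strand), that of Cldn3 at chr5:134985964-134986213 (plus strand), that of Ocln at chr13:100552719-100552968 (minus strand) and that of Tjp1 at chr7:65371245-65371494 (minus strand). The Tjp1 window lies inside the Tjp1 gene model (65296165 to 65527781), so it precedes an internal start site and not the outermost end of the gene.

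The Cldn2 window held TTTATG at -244 to -239 and TATAAA at -35 to -30 from the start site, motifs found in 10.8% and 12.4% of the 32851 RefSeq windows of the same length. The other 3 windows held only GGGCGG, read on the minus strand of the printed run (1 match in Cldn3, 1 in Ocln and 2 in Tjp1), a motif found in 32.7% of windows, and their GC content was 60.8% to 64.0%, against 52.0% for Cldn2 and a median of 52.4% over all windows. A second Ocln window, from another start site and not printed, held CACCTG at 2 places and GGGCGG at 1. A match is a run of letters and not a measured binding site. Windows were found for 8 of the 10 genes, and Cldn8 and Cldn23 had none in the table used. Of the 10 gene models, Cldn3 alone shares exon bases with another gene: 40 bases (3.18% of its exon length) overlap the antisense gene Wbscr25, listed at 0 to 0.248.

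The genes lie in separate places of the genome (GRCm38, GENCODE M21) apart from a pair on chromosome 5. There Cldn4 (134945119 to 134946934, minus strand) and Cldn3 (134986214 to 134987472, plus strand), each with a single exon, are 39279 bases apart. Cldn3 was lower in KO in 3 of 3 untreated couples and Cldn4 was higher in 2 of 3. Ocln lies on chromosome 13 at 100496507 to 100552718 (minus strand), Tjp1 on chromosome 7 at 65296165 to 65527781 (minus strand) and Cldn2 on chromosome X at 139800828 to 139811386 (plus strand).

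The antibiotic couple was then set beside the untreated mice. Its values were normalized apart from the others, and treatment coincides with 1 couple, so drug, litter and normalization cannot be told apart. No member was called for antibiotics versus none (0 of 9, against 0.156% of 11520 genes tested, 0.13% higher and 0.026% lower; limma over all 8 libraries with genotype as a term). At an unadjusted p under 0.05 there was 1 of 9 (Cldn2), against 19.4% of all tested genes. Both antibiotic values were below all 6 untreated values for 3 of the 10 genes (Cldn2, Cldn8 and Cldn12), as for 17.1% of all tested genes, and above them for 0, as for 3.86%.

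Cldn2 had the largest difference of the 9 tested members. It was 16.6 in WT and 9.54 in KO of the antibiotic couple, against 24.9 to 30.4 in untreated WT and 30.3 to 46.2 in untreated KO. The fitted log2 change was -1.27 (SE 0.27, limma unadjusted p = 0.00114, adjusted p = 0.103), against a median of -0.142 for all tested genes. After quantile normalization of all 8 libraries, which sets that median to 0, it was -1.19 (adjusted p = 0.135). Without the WT antibiotic library it was -1.82 (adjusted p = 0.0343), and without the KO one -0.72 (adjusted p = 0.98). By rank within each library, Cldn2 stood at percentile 82.3 to 91.7 of expressed genes in the untreated mice, at 77.4 in the treated WT and at 63.7 in the treated KO.

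Cldn12 was 8.27 (WT) and 6.93 (KO) in the antibiotic couple, just below its lowest untreated value of 8.43, with a log2 change of -0.33 (SE 0.16, adjusted p = 0.283). Cldn8 was 0.102 and 0.0471. Cldn3 (216 and 225) and Cldn15 (223 and 232) lay within the untreated range of their genotype in both mice. For Cldn4 (54.9 and 47.8), Cldn7 (364 and 325) and Cldn23 (18.3 and 13.0) the WT value was within that range and the KO value below it. For Ocln (30.1 and 31.1) and Tjp1 (21.1 and 20.0) the WT value was within the range and the KO value above it.

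Within the antibiotic couple, which has no replicate, KO was lower than WT for 7 of the 10 genes. For 3 genes (Cldn2, Cldn3 and Ocln) the sign was opposite to that shared by all 3 untreated couples, as it was for 25% of all tested genes (13.6% from higher to lower and 11.4% from lower to higher). The test of this difference between the antibiotic couple and the untreated couples called 0% of 11520 genes, 0 in either direction (limma with the couple as a term), with 1850 of them at an unadjusted p under 0.05. Among the members, Cldn2 had a difference of -1.10 (SE 0.24, unadjusted p = 0.00709, adjusted p = 0.185), Cldn23 of -0.53 (SE 0.16, adjusted p = 0.249) and Ocln of 0.43 (SE 0.14, adjusted p = 0.262) on the log2 scale. The 1 treated couple is assumed here to vary like the untreated ones.

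Other genes of cell junctions were compared between untreated KO and WT by list. Of 31 tested scaffold and polarity genes, 1 was lower and 0 higher (limma adjusted over all genes; 6 lower with the block, which called 9.91% of all tested genes lower), with a median log2 change of -0.19. The called gene was Amotl2, an angiomotin-like protein that binds actin and junction scaffolds. It was 3.41, 4.29 and 3.82 in the WT mice and 1.89, 1.40 and 1.12 in KO, with 3.15 (WT) and 2.74 (KO) in the antibiotic couple (log2 change -0.98, SE 0.17, adjusted p = 0.037). The untreated groups do not overlap, and both treated values lie between them. The summed value of 10 blood endothelium markers was also lower in untreated KO (20.3 to 34.8) than in untreated WT (41.7 to 51.5), and its part in the result was not tested. Scaffold genes named for comparison were Tjp3 (WT 61.9 ± 12.8, KO 60.3 ± 12.2, SD, n = 3 per genotype) and the cingulin gene Cgn (37.8 ± 3.66 and 32.0 ± 4.04).

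With the block, 8.4% of all tested genes were called higher and 9.91% lower. Of 13 other tight junction membrane genes, 0 were called without the block (3 higher and 2 lower with it, median -0.20). The 2 with the smallest p were both higher in KO: Marveld3, a relative of occludin, at 11.6 ± 1.53 in WT and 17.2 ± 1.74 in KO (adjusted p = 0.167, and 0.0259 with the block), and Ildr1, a protein of tricellular junctions, at 1.12 ± 0.39 and 2.23 ± 0.381 (adjusted p = 0.169, and 0.0262 with the block). Ildr1 was 0.969, 1.57 and 0.834 in the WT mice and would not have passed the filter without its KO libraries. Clmp, with the next smallest p, was lower in KO, at 7.96 ± 0.298 in WT and 5.42 ± 0.829 in KO (limma adjusted p = 0.173, and 0.0443 with the block). Marveld3 was 13.0 and 11.1 in WT and KO of the antibiotic couple. Of the 17 further claudins in the table, 2 were tested and 0 called: Cldn25 at 18.6 ± 2.17 and 16.0 ± 0.96, and the endothelial Cldn5 at 1.90 ± 0.149 and 1.99 ± 0.477.

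Of 16 genes of the actin and myosin belt beneath the junction, 0 were called without the block (1 higher and 1 lower with it). For 15 the fitted change was below 0 (-0.002 for Rock2), and the median was -0.215, beside -0.014 for all tested genes. Fitted changes were also below 0 for 24 of 31 scaffold and polarity genes, 9 of 13 membrane genes and 10 of 13 adherens junction genes. The count was 15 of 19 for the transcription factors below, 5 of 11 for desmosome genes and 2 of 5 for connexins. The share below 0 over all tested genes was not counted. For the actin and myosin list and the following lists, the share of all tested genes called with the block was 8.4% higher and 9.91% lower. The actin linker Vcl was 21.9 ± 3.16 and 14.2 ± 2.88 (adjusted p = 0.184, and 0.052 with the block) and the myosin kinase Mylk, also a smooth muscle gene, 55.2 ± 8.07 and 38.9 ± 1.98 (adjusted p = 0.236, and 0.0335 with the block). Of 13 adherens junction genes 0 were called (1 higher and 1 lower with the block, Ssx2ip and Ctnna1; median -0.15). Ctnna1, the alpha-catenin gene, was 154 ± 10.6 and 111 ± 3.03, and Ssx2ip 12.8 ± 1.16 and 17.4 ± 1.62, while E-cadherin (Cdh1) was 142 ± 24.3 and 141 ± 16.6. Of 11 desmosome genes 0 were called with or without the block (median 0.01), and of 5 connexins 0 without it, with Gjb2 higher with it (5.14 ± 0.686 and 9.05 ± 2.28).

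Of 19 transcription factors with known roles at claudin promoters or in epithelial junctions, 0 were called without the block. With the block, which called 9.91% of all tested genes lower, 3 were lower. Among these were Vdr, the vitamin D receptor (83.5 ± 15.4 and 52.3 ± 6.39), and Hnf4g (105 ± 32.8 and 58.0 ± 14.9). In the antibiotic couple Vdr was 95.0 (WT) and 121 (KO), and Hnf4g 138 (WT) and 175 (KO). Cdx2 was 56.8 ± 8.08 and 64.0 ± 10.2, and Hnf4a 206 ± 46.8 and 191 ± 27.7. Of the cytokine list 3 genes were expressed enough to be tested, with 0 called without the block. With the block, which called 8.4% of all tested genes higher, Tnf (0.521 ± 0.265 and 1.75 ± 0.244) and Hif1a (9.43 ± 2.44 and 18.6 ± 5.07), a hypoxia factor kept on that list, were higher. Tnf was under 1 in each untreated WT library (0.634, 0.711 and 0.218). It passed the filter through its KO libraries alone, so it was tested because it was high in KO. The leukocyte sum given above was also higher in untreated KO. In couple 2 it differed little (173 in WT and 185 in KO, with a median log2 change of -0.249 over its markers). Its part in the values of Tnf and Hif1a was not tested.

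**Figure D4:**
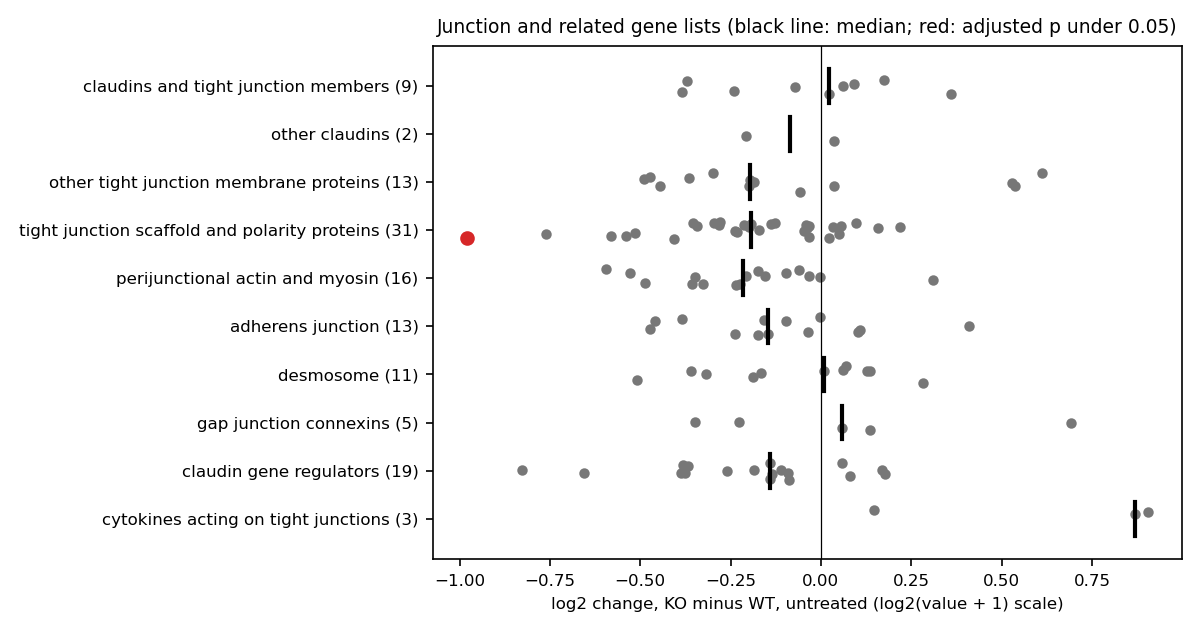
Fitted log2 change, KO minus WT in untreated mice (horizontal axis), of each tested gene in 10 lists, with list medians as black lines and called genes in red; the vertical scatter within a row carries no value. Amotl2 at -0.98 is the single called gene, and the list medians lie between -0.215 and 0.059 except that of the 3 cytokine-list genes. That median (0.868) is the value of Tnf, which passed the filter through its KO libraries alone.

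Genes with the most similar profile over the 8 libraries were listed for the 3 members with the smallest p, as a description without a test, since the libraries share couples and normalization. For Ocln they included Lrp12 (Pearson r = 0.962) and Fam118a (0.962). Lrp12 was 10.9, 9.39 and 13.2 in the WT mice, 6.59, 4.92 and 8.44 in KO, and 12.1 (WT) and 11.9 (KO) in the antibiotic couple. For Tjp1 they were Dnajc5 (0.987), Gpr116 (0.982) and Hmcn2 (0.98), and for Cldn2 Sh3bgrl2 (0.982), Ccdc127 (0.971) and Galnt3 (0.967), a mucin-type glycosyltransferase that was 5.38 and 3.95 in the antibiotic couple and 6.37 to 9.91 in the untreated mice.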

How the data were processed

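The authors sequenced oligo(dT)-selected RNA on an Illumina HiSeq 2000 or an Ion Proton and mapped the reads with CLC Genomics Workbench 7.5 to the GRCm38.76 data set, per the labels' protocols and the series' design text. The deposited values carry no named unit and were taken as RPKM: the library sums were 346794 to 397082, and log2 values fell with log2 exon length (slopes -0.55 to -0.36). Per the values deposited, couples 1 and 2, couple 3 and the antibiotic couple form 3 separately quantile-normalized sets, so levels set across them carry that difference. In the WT antibiotic column 423 genes with shared, missing or very low values were left out of the antibiotic comparisons, and 0 members were among them.

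Each fit kept genes reaching 1 in 3 or more of its libraries, on log2(value + 1) using limma 3.58.1 in R 4.3.3 (trend, Benjamini-Hochberg, threshold 0.05, two-sided), which understates the change of low genes. Couple numbers mark littermates per the labels, and littermates deviated together (correlations 0.622, 0.637 and 0.508 in couples 1, 2 and 3). The fits were tested on simulated data with changes of 2 or 3 log2 units, larger than any fitted for a member, and a scaled-down residual spread. Couple effects were drawn with the same spread for every gene and were not taken from the data. The recovery therefore does not carry over to changes of the members' size. Nor does it compare the fits with and without the block at the couple effects of these data. Of 200 changed genes, the untreated comparison recovered 198 with 4 false calls without the block and 191 with 8 with it (11481 genes each). The antibiotic comparison recovered 198 but made 77 false calls, and the test of the genotype difference with versus without antibiotics recovered 162 with 6 false calls (11599 genes each). The members, gene lists and the naming rule (all members, then the called or 2 lowest-p genes of each list, with a few further genes named after their values were seen) were chosen with earlier results of these data known. Some genes that this rule names are not reported here.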

Additional observations from a re-analysis of the deposited data

Results flagged for a closer look

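For 3 of the 10 genes the difference between KO and WT in the antibiotic couple was opposite to that in each of the 3 untreated couples. Cldn2 was higher in KO in the untreated couples (0.59, 0.06 and 0.43 on the log2 scale) and lower in the antibiotic couple (-0.74), with a tested difference of -1.10 (limma adjusted p = 0.185). Cldn3 was lower in the untreated couples (-0.20, -0.26 and -0.26) and at 0.06 (0.0593) in the antibiotic couple, with a tested difference of 0.30 (adjusted p = 0.41). Ocln was lower in the untreated couples (-0.42, -0.38 and -0.35) and at 0.05 (0.0455) in the antibiotic couple, with a tested difference of 0.43 (adjusted p = 0.262). Such a turn occurred in 25% of all tested genes, and the antibiotic couple has no replicate. The groups were too small for a test of single outlying samples.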

How the results depend on the processing

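Of the 10 genes, none was called without the replicate block under any filter, pseudocount, normalization or left-out library in the untreated comparison. Ocln alone was called with the block, at a log2 change of -0.38 as deposited and -0.39 after quantile normalization (adjusted p = 0.0316 and 0.035), but not with any couple left out. The blocked fits that leave out a couple or are also quantile normalized were chosen after seeing the data. The pairing of littermates moved the number of called genes from 253 to 2145 (2041 when also quantile normalized; 256, 474 and 579 without couples 1, 2 and 3), and moved no other member across the threshold. Without the filter on low values 11 genes were called in the untreated comparison and 0 for antibiotics. With couples 1 and 2 only, 0 were called. Leaving out 1 library gave 68 to 152 calls in the untreated comparison and, for antibiotics, 1 (without the treated KO) to 161 (without the treated WT), against 18. Keeping the 423 genes with faulty values raised the calls for the genotype difference with versus without antibiotics from 0 to 256.

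Sign changes among the members were limited to uncalled values. Leaving out 1 library at a time, the untreated log2 change ranged from -0.0069 to 0.3635 for Cldn4, -0.0871 to 0.2485 for Cldn7, -0.0552 to 0.1245 for Cldn12 and -0.2684 to 0.1378 for Cldn15. The antibiotic log2 change ranged from -0.2096 to 0.0896 for Cldn3, -0.0302 to 0.161 for Cldn15, -0.5202 to 0.0064 for Cldn23 and -0.0741 to 0.3545 for Ocln. Cldn23 was at -0.0024 in the untreated comparison with couples 1 and 2 only, with or without the block, and Cldn15 at -0.0017 for antibiotics after quantile normalization. The cause was not tested. Read depth is unknown, which limits what can be said of Cldn8.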

Other observations

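Claudins outside the 10 genes were mostly near 0 in the ileum. Of 17 further claudins, 2 (Cldn5 and Cldn25) reached 1 in at least 3 libraries and 2 (Cldn16 and Cldn20) were listed at 0 in all 8. Cldn1, a claudin of skin and other barrier epithelia, was highest at 0.649, in the KO library of couple 1 that also carried Car1. Cldn18, known from stomach and lung, did not exceed 0.0269. The libraries of couple 3 and of the antibiotic couple listed fewer genes above 0 (11912 to 13749) than those of couples 1 and 2 (20896 each), so a value of 0 there was not read as absence.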
